A study of Drosophila melanogaster with 4 samples.

Results

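Short H3K36me1 clusters on the X chromosome of adult fly heads are described here, in number, width, spacing, position and score. H3K36me1 is histone H3 with a single methyl group on lysine 36. The clusters were chosen by chromosome, width and position: those of the combined list that lie on X, measure less than 20 kb and start before 19.4 Mb in FlyBase release 5 coordinates. This rule gave 1399 of the 7567 clusters of the combined list. The same rule gave 1060 of 5477 clusters in the list of replicate 1 and 1001 of 5412 in the list of replicate 2. Of all 1577 X clusters in the combined list, 67 met the position limit but measured 20 kb or more. A further 108 narrower clusters and 3 wider ones started beyond the limit. Width, position and membership in a list chose the clusters, so these values are given as a description and support no test.

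The samples were 2 chromatin immunoprecipitation (ChIP-seq) replicates from heads of wild-type Oregon-R Drosophila melanogaster, a standard laboratory strain, with the stage labelled mixed adult. Their 2 inputs, chromatin sequenced without antibody, came from the same strain and tissue, and each served the cluster list of the replicate with its number. The flies grew in population cages and their heads were separated by sieving, so all cell types of the head are pooled, and no label states whether they were male or female. No library received a treatment or carried a mutation. A list of enriched clusters was deposited for each ChIP replicate, and a combined list for the set of both. The lists hold positions and scores without read counts, so the depth is unknown, and the head label could not be checked against marker genes. Nothing in the labels says that the replicates came from separate cages, so the spread between them may be technical.

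Methyl groups on this lysine are placed by several enzymes. In flies, Set2 makes the trimethylated form over the bodies of transcribed genes, while Mes-4 and Ash1 are known for lower methylation states. The monomethylated form has been mapped in fly cells over introns of active genes together with H3K4me1, a mark of enhancers. On the male X, the MSL complex raises transcription of a single copy of the chromosome and recognises trimethylated H3K36, so this lysine has long been studied on X.

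X carried more short clusters per megabase than the stretches of equal length at the telomeric ends of 2L, 3L and 3R. The replicate lists gave 54.6 and 51.6 X clusters per Mb, a mean of 53.1 ± 2.15 (SD, n = 2). The mean of 2L was 42.1 ± 0.729 per Mb and that of 3R 41.3 ± 0.219 (SD, n = 2), and 3L had 46.8 in both replicates. X stood above each of these arms in both replicates, and the X and arm values did not overlap. The difference between X and the mean of the 3 arms was 11.1 per Mb in replicate 1 and 8.33 in replicate 2, or 9.73 ± 1.98 (SD, n = 2). It was smallest against 3L, at 7.84 per Mb in replicate 1 and 4.79 in replicate 2. In replicate 2 X thus lay closer to 3L than 3L, at 46.8 per Mb, lay to 3R, at 41.4. In replicate 1 the arms ran from 41.1 to 46.8 per Mb, and X lay further from 3L than they lay from each other. In the combined list X had 72.1 clusters per Mb, against 56.4 on 2L, 64.1 on 3L and 57.0 on 3R. No test of X against the arms was run, here or in what follows, since arms of the same library are not samples and the lists themselves chose the clusters. An exact two-sided sign permutation of the differences in 2 replicates could not give a p below 0.5.

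These short clusters covered 21.9% of the X stretch in replicate 1 and 20.5% in replicate 2, a mean of 21.2% ± 0.975 (SD, n = 2). Clusters of this width covered 17.1% ± 0.393 of 2L, 19.0% ± 0.467 of 3L and 17.5% ± 0.701 of 3R (SD, n = 2 each). Wide clusters showed no such excess on X, with 34 and 38 of 20 kb or more in replicates 1 and 2, against 40 to 47 per arm in replicate 1 and 38 to 48 in replicate 2. The 34 and 38 wide clusters covered 5.80% and 6.08% of the X stretch. For the arms this was 6.48% to 9.61% in replicate 1 and 6.26% to 9.32% in replicate 2. Short clusters therefore held 79.1% and 77.2% of the clustered bases of the X stretch, against 66.8% to 73.5% in the arms in replicate 1 and 66.7% to 73.0% in replicate 2. In the combined list this contrast was smaller, with 67.8% on X against 63.6% to 66.2% in the arms. There X had 67 wide clusters, within the range of 56 to 68 in the arms.

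Most of the X clusters were narrow. In the combined list the median width was 2193 bases, with quartiles of 1451 and 4123, a smallest width of 1001 and a largest of 19539. Clusters of 1 to 2 kb made up 45.3% of the 1399 (634 clusters) but held 17.8% of their bases. Those of 2 to 3 kb numbered 251, those of 3 to 5 kb 223 and those of 5 to 10 kb 192. The 99 clusters of 10 to 20 kb were 7.08% of the total and held 26.3% of the bases. The replicate lists were less weighted to the narrow end, with 37.8% and 34.4% under 2 kb, and their narrowest clusters measured 1302 and 1301 bases.

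Counted per Mb, the excess of X clusters over the arms lay mostly in the classes under 3 kb, which also held most clusters on X and on each arm. The share of 1 to 2 kb was 37.8% on X in replicate 1 and 34.4% in replicate 2. For the mean of the arms it was 35.2% and 35.0%. For 2 to 3 kb the shares were 21.4% and 22.9% on X, against 20.4% and 22.3%. For clusters of 1 to 2 kb, X had 20.7 per Mb in replicate 1 and 17.7 in replicate 2. Replicate 1 gave 13.4 to 17.6 for the arms and replicate 2 gave 14.3 to 16.8. In that class X exceeded the mean of the arms by 5.31 and 2.58 per Mb, and in the class of 2 to 3 kb by 2.84 and 2.15. Clusters of 5 to 10 kb added 2.10 and 1.79 per Mb, and those of 3 to 5 kb 0.412 and 1.37. For 10 to 20 kb the difference was 0.481 and 0.447 per Mb. In these last 2 classes the differences were no larger than those among the arms themselves, and for 3 to 5 kb in replicate 1 X lay below 3L, at 8.71 against 9.02 per Mb. Seen as shares the width classes were close, and the share under 2 kb differed between X and the mean of the arms by 2.63 percentage points in replicate 1 and -0.630 in replicate 2. The direction of that difference was not the same in both replicates.

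The scores of these clusters, a positive number deposited by the authors without a stated unit, were higher on X along nearly the whole distribution. In replicate 1 the X clusters ran from 0.399 to 1.74 with a median of 0.840, and the medians of 2L, 3L and 3R were 0.643, 0.645 and 0.666. In replicate 2 they ran from 0.438 to 1.52 with a median of 0.765, against 0.602, 0.611 and 0.618. The combined list gave an X median of 0.541, against 0.428, 0.424 and 0.425. X minus the mean of the arm medians was 0.171 ± 0.0236 (SD, n = 2 replicates) and 0.115 in the combined list.

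The shift was already present at the low end. At the 5th percentile X lay above the mean of the arms by 0.149 in replicate 1, by 0.119 in replicate 2 and by 0.0976 in the combined list. Of 1060 X clusters in replicate 1, 3 scored below the 5th percentile of the pooled arm clusters. In replicate 2 it was 0 of 1001, and in the combined list 3 of 1399. The lowest X score exceeded the lowest score of each arm in all 3 lists, by 0.100 to 0.134 in the replicates. At the 75th percentile the shift was 0.192 in replicate 1, 0.162 in replicate 2 and 0.123 for the combined list. At the 99th percentile it was 0.112, 0.0786 and 0.0893. At the top X did not stand above every arm, since the highest combined score was 1.69 on X and 2.42 on 3R, and in replicate 2 the highest scores were 1.52 on X and 1.58 on both 2L and 3R. The pooled arm median was reached by 89.9% and 88.2% of the X clusters of replicates 1 and 2 and 88.9% of those in the combined list, where 50% of arm clusters reach it by definition.

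**Figure D1:**
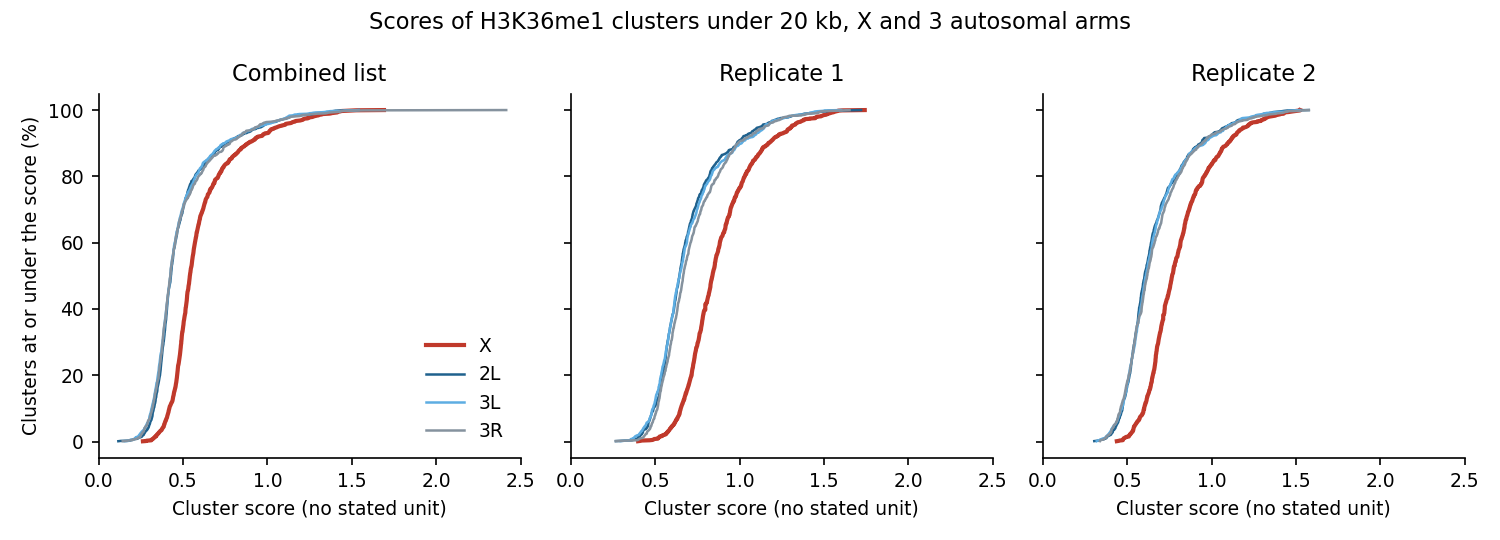
Cumulative distributions of the score of clusters under 20 kb, for X (red) and the telomeric 19.4 Mb of 2L, 3L and 3R, in the combined list and in each replicate list (x axis: score, no stated unit; y axis: percent of clusters at or under the score). The X curve lies to the right of all 3 arm curves over nearly its whole course, with medians of 0.541, 0.840 and 0.765 in the 3 panels.

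Score rose with width on X as on the arms, with a Spearman correlation across X clusters of 0.768 in replicate 1 and 0.782 in replicate 2 (n = 1060 and 1001 clusters of the same library). Over the 1399 clusters of the combined list it was 0.636. Clusters of 1 to 2 kb had a median score of 0.720 in replicate 1 and 0.648 in replicate 2, and those of 10 to 20 kb had 1.17 and 1.07. X stood above each of the 3 arms in every width class of every list. In replicate 1 the difference to the mean of the arms was 0.175 for 1 to 2 kb, 0.189 for 2 to 3 kb, 0.202 for 3 to 5 kb, 0.188 for 5 to 10 kb and 0.141 for 10 to 20 kb. In replicate 2 it was 0.144, 0.146, 0.159, 0.197 and 0.0910 in the same order. The widest class thus had the smallest difference in each replicate. It did not in the combined list, where the 5 differences ran from 0.113 to 0.164 and the widest class had 0.116.

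**Figure D2:**
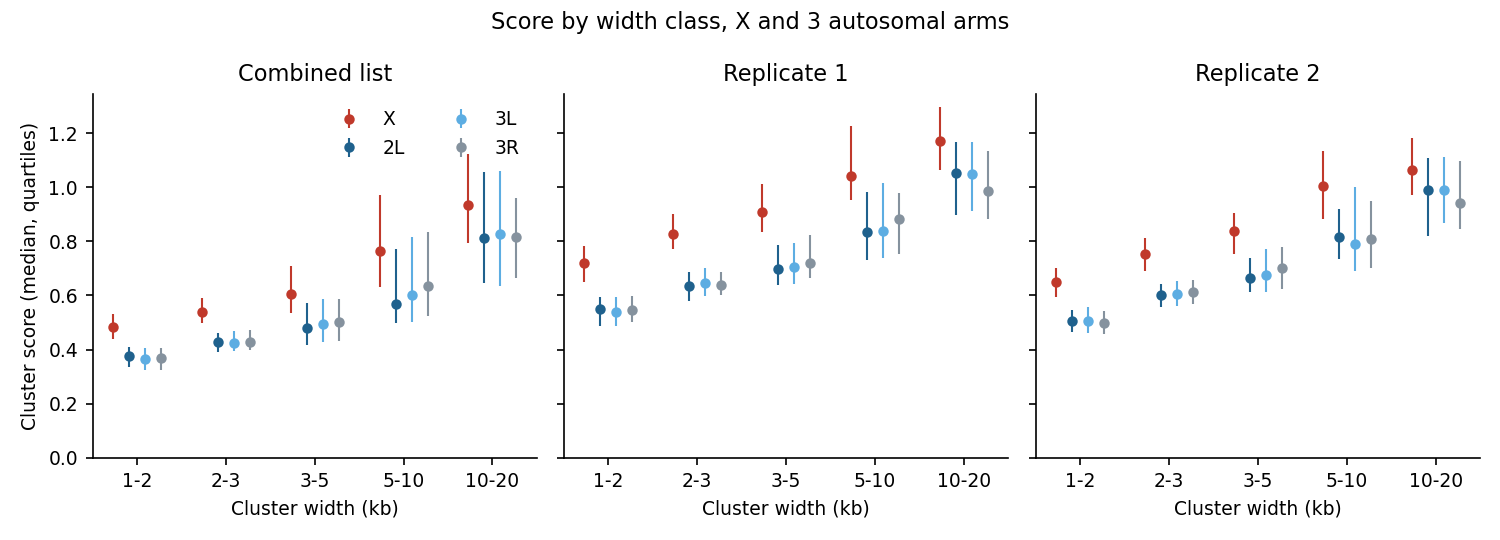
Median score by width class for X (red, left in each class), 2L, 3L and 3R, in the combined list and both replicate lists (x axis: cluster width in kb; y axis: score, no stated unit; bars: lower to upper quartile). X is the highest of the 4 in each class and list, and in replicate 1 the X medians run from 0.720 for 1 to 2 kb to 1.17 for 10 to 20 kb.

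Clusters with high scores were a larger share on X than on the compared stretches of 2L, 3L and 3R. A fixed score limit restates the shift described above. A score of 1 or more was held by 98 of the 1399 X clusters of the combined list (7.01%), against 44 of 1095 on 2L (4.02%), 53 of 1244 on 3L (4.26%) and 40 of 1105 on 3R (3.62%). Over all 7220 clusters under 20 kb in that list, on all sequences including those not compared here, the share was 4.76%. The 5 highest-scoring X clusters found in both replicates measured 6251 to 12064 bases. The first, X:1514718-1522899 (8182 bases), scored 1.53 in the combined list, 1.61 in replicate 1 and 1.51 in replicate 2, and 97.7% and 96.8% of its bases lay in clusters of the replicates. Next came X:11432850-11444913 with a combined score of 1.49 and X:4562375-4573218 with 1.47. The others were X:507894-514144 with 1.44 and X:16535107-16542747 with 1.43. Each of the 5 matched a single cluster in each replicate, with replicate scores between 1.43 and 1.61, and at least 82.5% of its bases were covered in both.

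At the low end, the 3 lowest-scoring X clusters of the combined list were X:18574831-18576198 at 0.262, X:3568436-3569723 at 0.281 and X:2602279-2603848 at 0.282. They measured 1368, 1288 and 1570 bases, and no replicate list held them. The widest members, X:3120982-3140520, X:5860263-5879492 and X:16461229-16480401, measured 19539, 19230 and 19173 bases and scored 0.848, 0.812 and 1.15. The first was split into 2 clusters in replicate 1 and 5 in replicate 2. The narrowest X clusters beyond the width limit measured 20178, 20353 and 20389 bases and scored 1.39, 1.21 and 1.27. The last member before the position limit was X:19391366-19401652 with a score of 1.17, after X:19243624-19247244 with 0.485. The first clusters after the limit, X:19402112-19404952 and X:19497507-19498961, scored 0.559 and 0.349. Beyond the limit the remaining 3.02 Mb of X held 35.7 clusters under 20 kb per Mb, against 72.1 before it, with a median score of 0.539.

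The X clusters were spread along the whole stretch. The first, X:24411-27463 (3053 bases), scored 0.490. Every one of the 19 full windows of 1 Mb held between 54 and 95 clusters of the combined list, with a median of 71. Windows on 2L ranged from 29 to 78, on 3L from 37 to 93 and on 3R from 34 to 90. Relative to their mean, the X counts of the combined list varied less, with a coefficient of variation of 0.169 against 0.228 to 0.240 in the arms. This did not hold in the replicate lists, where X had 0.249 and 0.256, against 0.204 to 0.264 in the arms. The fullest windows were 17 to 18 Mb with 95 clusters, 2 to 3 Mb with 91 and 5 to 6 Mb with 86. In these 3 windows replicate 1 listed 62, 88 and 72 clusters and replicate 2 listed 69, 69 and 73.

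The X windows with the fewest clusters in the combined list differed from each other. Counts were lowest at 1 to 2 Mb (54 clusters), 15 to 16 Mb (55) and 18 to 19 Mb (56). In the window of 15 to 16 Mb the short clusters covered 13.0% and 10.8% in replicates 1 and 2 and 17.15% in the combined list, and the replicates listed 30 clusters each. In that of 18 to 19 Mb the replicates listed 43 and 34, which covered 14.6% and 12.0%. There the combined list covered 15.9%, its lowest value on X. The window of 1 to 2 Mb instead held 63 and 57 short clusters in the replicates, which covered 32.5% and 32.2% of it, the highest X values in both. Its median score, 0.958 in replicate 1 and 0.924 in replicate 2, was also the highest of the 19 X windows. Short clusters of the combined list covered 25.4% of it, and that list also held a single wide cluster there, X:1449307-1512947 (63.6 kb, score 1.23). Over that stretch each replicate had 1 of its 2 longest chains of short clusters less than 1 kb apart. The chain was 7 clusters over 63.2 kb (X:1449572-1512751) in replicate 1 and 8 over 66.1 kb (X:1446693-1512777) in replicate 2.

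Window counts on X moved together in the replicates, with Pearson and Spearman correlations of 0.887 and 0.886 over 19 windows, which lie on a single chromosome and are not independent. The median difference between replicates was 4 clusters and the largest 19. Median scores of the windows correlated at 0.772 and 0.728. The X window medians of the combined list ran from 0.512 to 0.569. Of the 57 arm windows, 1 exceeded the lowest X window in the combined list, 2 did in replicate 1 and 5 did in replicate 2. When the stretch was divided into 4 segments of 4.85 Mb, the score difference to the mean of the arms ran from 0.142 to 0.218 in replicate 1. It was 0.133 to 0.167 in replicate 2, and 0.105 to 0.123 for the combined list. In all 3 lists it was smallest in the segment nearest the centromere and largest in the third, and X stood above each arm in all 4 segments.

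**Figure D3:**
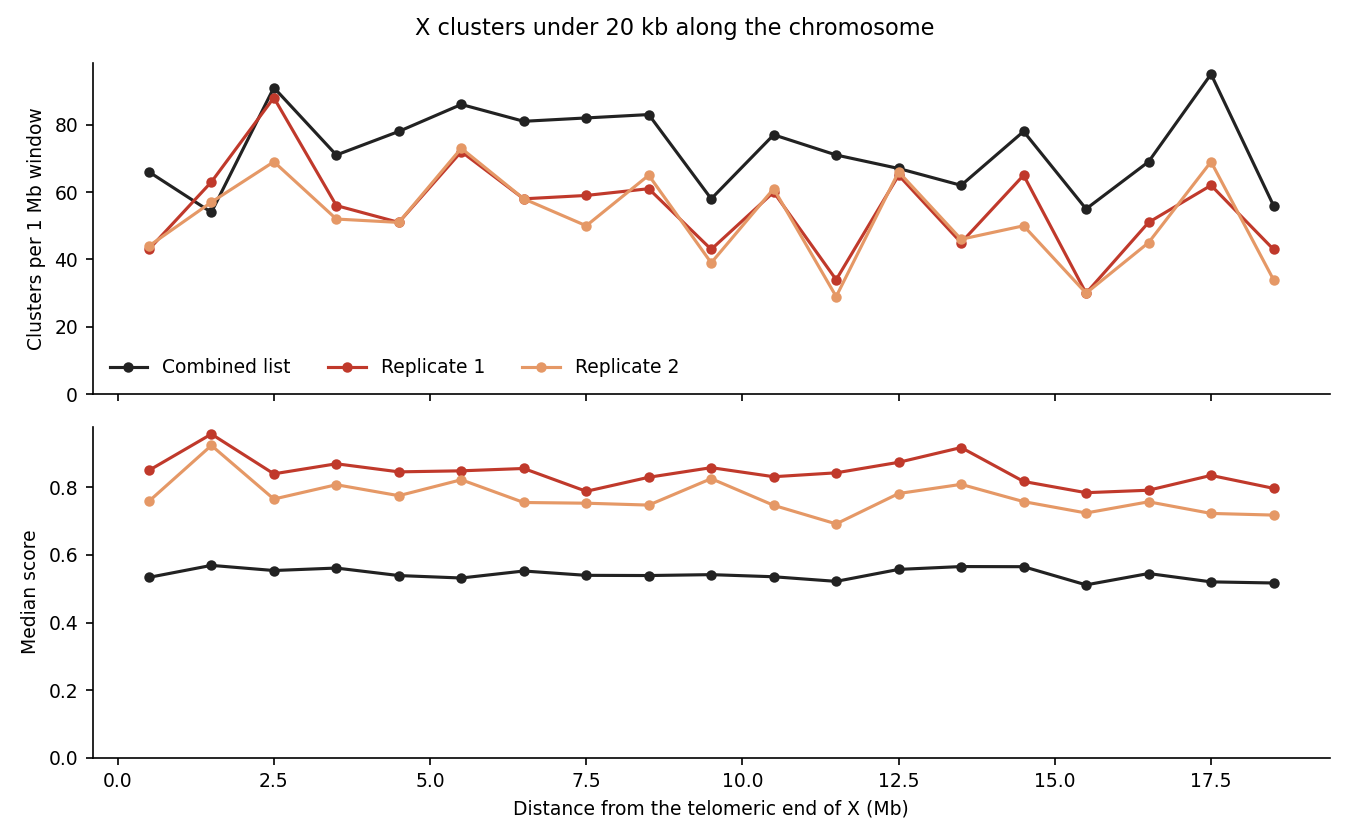
Number (upper panel) and median score (lower panel, no stated unit) of X clusters under 20 kb in 19 windows of 1 Mb, by distance from the telomeric end in Mb, for the combined list and both replicate lists. Counts of the combined list stay between 54 and 95, counts of the replicates fall together at 11 to 12 Mb and 15 to 16 Mb, and the highest replicate scores lie at 1 to 2 Mb.

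Neighbouring clusters were often close. The median gap between neighbouring X clusters, from the end of one to the start of the next, was 3275 bases in replicate 1, against 3615 to 3821 on the arms. It was 3724 bases in replicate 2, against 3641 to 3957, and 2743 in the combined list, against 2462 to 3295. X lay below all 3 arms in replicate 1 and within their range in the other lists. Of the 1398 X gaps of the combined list, 29.4% were under 1 kb, 22.6% were 1 to 3 kb, 21.8% were 3 to 10 kb, 16.4% were 10 to 30 kb and 9.80% were 30 kb or more. A wider cluster lay within 53 of these gaps.

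Long gaps were a smaller share on X than on the arms, while their number per megabase was about the same. Gaps of 30 kb or more made up 15.4% of X gaps in replicate 1, against 17.3% to 19.7% in the arms, and 16.1% in replicate 2, against 16.8% to 20.0%. Per Mb there were 8.40 and 8.30 such gaps on X in replicates 1 and 2, against 8.09 to 8.20 and 7.84 to 8.30 in the arms. Each shorter class was more frequent per Mb on X than on any arm in both replicates. For gaps under 1 kb X had 14.3 and 12.8 per Mb, against 9.69 to 11.2 and 10.1 to 11.4. For gaps of 10 to 30 kb X had 8.97 and 8.66 per Mb, against 5.36 to 7.11 and 5.67 to 7.53. The higher X density thus showed in gaps under 30 kb. The 90th percentile of the gaps was 42861 bases in replicate 1 and 44796 in replicate 2 on X, below every arm. The arms had 50143 to 62095 bases in replicate 1 and 48217 to 65305 in replicate 2. These gaps run between short clusters and can hold a wider one. In replicate 1 that was so for 30 X gaps, against 35 to 37 per arm, and in replicate 2 for 35, against 32 to 35. The part of these wider clusters in the difference was not tested.

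**Figure D4:**
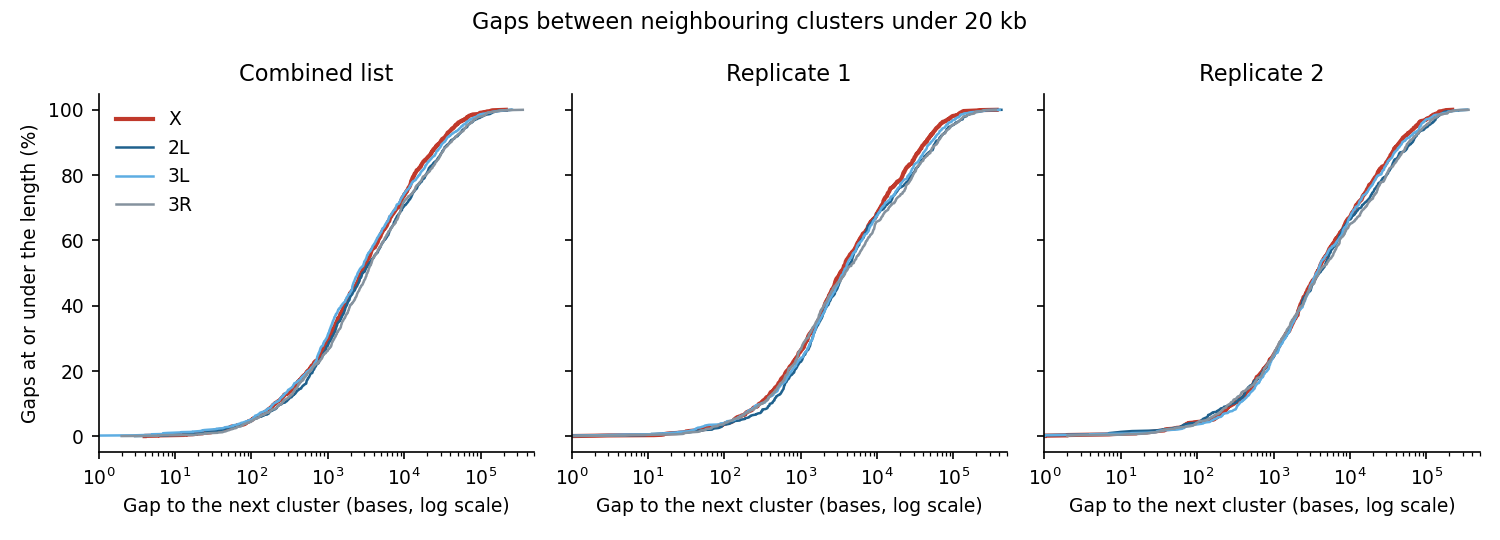
Cumulative distributions of the gap between neighbouring clusters under 20 kb for X (red), 2L, 3L and 3R, in the combined list and both replicate lists (x axis: gap in bases on a log scale, gaps under 1 base drawn at 1; y axis: percent of gaps at or under the length). X has the lowest 90th percentile of the 4 in each panel, at 29597 bases in the combined list, 42861 in replicate 1 and 44796 in replicate 2.

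The longest stretch of X without a short cluster in the combined list was X:3824005-4037911, at 213.9 kb. The next was X:7611454-7782942, at 171.5 kb. Neither replicate listed a cluster of any width in these 2 stretches. The one after that, X:19247245-19391365 (144.1 kb), differed in kind, since 2 wide clusters of 114.2 kb together lay inside it. Close neighbours formed chains. With gaps under 1 kb, 675 of the 1399 X clusters (48.2%) belonged to 264 chains of 2 or more, and the longest held 8 clusters over 54.2 kb (X:14769178-14823366) with scores of 0.441 to 0.833. The share in chains was 43.5% in replicate 1 and 42.0% in replicate 2. The arms had 39.1% to 45.4%, 40.9% to 42.4% and, for the combined list, 45.1% to 50.4%, so X lay within the range of the arms in each list.

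X clusters with a close neighbour were wider. Within 1 kb of any other cluster lay 700 X clusters of the combined list, with medians of 2571.5 bases for width and 0.554 for score. The 96 whose nearest cluster lay 10 to 30 kb away had medians of 1761.5 bases and 0.501, and the 9 with none nearer than 30 kb had 1260 bases and 0.554. In the replicates the same groups had median widths of 3012 against 1741 bases and 3206 against 2010 bases. Their median scores were 0.873 against 0.761 in replicate 1 and 0.803 against 0.713 in replicate 2. The arms of the combined list showed the same order, with median widths of 2464 to 3044 bases against 1756 to 1811 in these groups. The median scores on the arms were 0.434 to 0.443 against 0.398 to 0.420. Scores of neighbouring X clusters were weakly related, with a Spearman correlation of 0.149 and 0.161 in replicates 1 and 2 and 0.179 in the combined list. Neighbours share a library and a region, and the arms had 0.154 to 0.246, 0.131 to 0.239 and 0.112 to 0.178 in the same order.

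Short X clusters next to a wide one also scored higher. The 80 members within 5 kb of an X cluster of 20 kb or more had medians of 0.659 for score and 4297.5 bases for width, while the 661 at 100 kb or more had 0.531 and 1999 bases. The replicate lists gave scores of 0.947 against 0.841 and 0.901 against 0.754 for the same distances. The order over distance was not even, since in replicate 1 the clusters 50 to 100 kb away had 0.807. Score rises with width, and the part of width in this difference was not tested. The arms of the combined list showed the same order, with medians of 0.467 to 0.529 within 5 kb and 0.416 to 0.426 at 100 kb or more.

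The last description set the short X clusters against the replicate lists, where a cluster counted as found if it shared at least 1 base. The combined list draws on both libraries, so this is no test of independence. Of the 1399 X clusters, 525 (37.5%, Wilson 95% interval 35.0 to 40.1) were found in both replicates, and over all clusters under 20 kb of the combined list the share was 40.9%. A further 192 were found in replicate 1 only and 143 in replicate 2 only. The other 539 (38.5%, interval 36.01 to 41.1) were in neither list, against 36.9% over all such clusters. The share found in both was 44.1% on 2L, 43.0% on 3L and 40.6% on 3R, so X was lowest of the 4, and its interval overlapped that of 3R (37.8 to 43.6). Both bounds reflect only how many clusters were counted, not the spread between replicates. Between the replicates, 806 of the 1060 X clusters of replicate 1 (76.0%) were found in replicate 2, against 77.6% to 79.3% in the arms and 78.3% over all clusters of this width. In the other direction it was 818 of 1001 (81.7%), against 82.9% to 86.5% in the arms and 82.6% overall.

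Whether an X cluster was found followed its width, though a wider cluster meets the rule of 1 shared base more readily. The part of that rule in the order was not tested. Of the 634 clusters of 1 to 2 kb, 12 (1.89%) were found in both replicates and 471 (74.3%) in neither. The arms were close to this, with 2.11% to 4.01% in both and 72.2% to 74.5% in neither. The X share found in both was 39.4% for 2 to 3 kb, 61.9% for 3 to 5 kb and 92.2% for 5 to 10 kb. All 99 clusters of 10 to 20 kb were found in both. In each class under 10 kb X was below each arm, though only narrowly below 3L for 1 to 2 kb. For 2 to 3 kb the arms had 42.2% to 52.4%. For 3 to 5 kb the arms had 68.8% to 74.1%, and for 5 to 10 kb 96.6% to 97.6%. Of the members, 269 (19.2%) were narrower than any cluster of the replicate lists, and 253 of these (94.1%) were found in neither. On the arms 18.7% to 20.2% of the short clusters were that narrow, and 90.6% to 97.1% of those were in neither. Without these 269 narrow clusters, the share of X clusters found in both was 46.5%, against 50.9% to 54.4% in the arms.

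**Figure D5:**
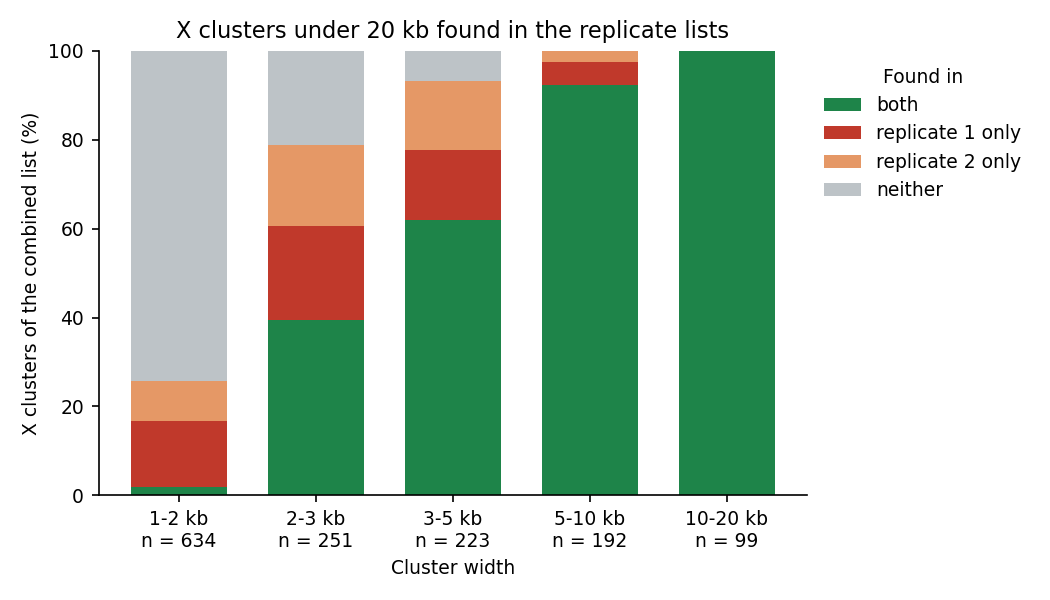
Share of the 1399 X clusters of the combined list found in both replicate lists, in 1 of them or in neither, by width class (x axis: width class with its number of clusters; y axis: percent). The share in both climbs with each wider class, from 1.89% at 1 to 2 kb to all 99 clusters at 10 to 20 kb. A cluster counts as found if it shares at least 1 base, which a wider cluster does more readily.

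Over all widths, score ordered the X clusters likewise. Among the 350 highest-scoring members, 329 (94.0%) were found in both replicates, and among the 350 lowest-scoring, 19 (5.43%) were. Score rises with width, and the part of width in this order was not tested. Among X clusters of 1 to 2 kb the order did not hold. There the 12 found in both had a median score of 0.461 and the 471 in neither 0.489. For 2 to 3 kb the medians were 0.583 and 0.517, and for 3 to 5 kb 0.671 and 0.486. A small group went against the order over all widths: 16 of the 350 highest-scoring members were found in neither replicate, with a median width of 1110.5 bases. Among the members that scored 1 or more, 4 of 98 were in neither list, and they measured 1001 to 1139 bases. The first of them, X:13895131-13896131, had the highest score of all short X clusters (1.69) at the smallest width of the list (1001 bases). The next were X:14452317-14453363 (1047 bases, score 1.38) and X:11644436-11645503 (1068 bases, score 1.14). Such clusters also occurred on the arms, with 2 on 2L, 1 on 3L and 1 on 3R, of which the one on 3R had the highest score of its arm, 2.42.

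Where both replicates listed the same short X cluster, its edges differed between them. One-to-one pairs with both widths under 20 kb numbered 507 on X. Their starts differed by a median of 305 bases, their ends by 261 and their widths by 454. In 50.3% of the pairs both edges agreed within 500 bases, and in 6.71% within 100. On the arms the median start differences were 218, 219 and 244 bases on 2L, 3L and 3R, with 51.6% to 58.8% of pairs within 500 bases and 9.57% to 10.5% within 100. Edges agreed best in the widest X class, where 64.3% of the 42 pairs of 10 to 20 kb had both edges within 500 bases. Neither replicate drew the X clusters wider as a rule, since 47.5% of the pairs were wider in replicate 1. Scores of the X pairs had a Spearman correlation of 0.719, against 0.781 to 0.806 on the arms. By width in replicate 1 the correlation on X was 0.297 over 143 pairs of 1 to 2 kb, 0.149 over 121 of 2 to 3 kb and 0.423 over 104 of 3 to 5 kb. It was 0.827 over 97 pairs of 5 to 10 kb and 0.818 over 42 of 10 to 20 kb, so it did not climb evenly with width.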

How the data were processed

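H3K36me1 ChIP-seq of adult fly heads gave 2 ChIP replicates, each with an input, grouped by their titles. The aligner was Bowtie 0.12.7, as the submitters' processing notes name it. The authors deposited cluster lists with a score for each cluster. Neither its unit, nor the caller and threshold, nor how both replicates were joined into the combined list, is given in the sources used here. For this reason scores were compared within lists, as differences. Coordinates count from 1 in FlyBase release 5, per the file headers. The gene table used here is of another release, so genes and bases of the clusters are not given.

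Clusters were handled with Python 3.11.15, numpy 2.4.6, pandas 2.3.3, scipy 1.17.1 and matplotlib 3.10.9, with functions tested on simulated lists. X was set against 2L, 3L and 3R over the 19.4 Mb nearest each telomere, which on 3R is the high end. Wilson intervals at the 95% level cover counting over clusters only, since the lists give no depth. Alternatives changed the width limits, the stretch, the joining of close clusters, the score range, the overlap rule and the list. Members, classes and comparisons were chosen with earlier results of these data known. Named regions follow fixed ranks: the 5 highest-scoring members found in both replicates, the 3 highest found in neither, the 3 lowest, the 3 widest, the nearest to each limit, the 3 longest gaps, the longest chain, and the 3 fullest and 3 emptiest windows. The chains of the replicates and their combined cluster were added after their values were seen.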

Additional observations from a re-analysis of the deposited data

How the results depend on the processing

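No difference between X and the arms was tested, and with 2 replicates an SD is itself uncertain. The score difference of 0.115 kept its sign under every alternative but the upper part of the list by score, where it was -0.0222. That part is selected on the score itself. The other alternatives, leaving out replicates aside, gave 0.115 to 0.124. The 72.1 X clusters per Mb became 47.3 after joining over gaps up to 1 kb, which merges clusters. The density difference of 12.9 was 10.5 with the minimum width of the replicate lists, 9.61 over whole arms, 8.06 after joining and 36.9 in the upper part by score, which favours X by construction. The covered percent of 26.3 was 19.4 and 30.5 with width limits of 10 and 30 kb, 24.7 with the minimum width, 24.6 over whole arms, 20.8 after joining and 24.3 in the upper part. The median gap of 2743 bases was 3230 at the 10 kb limit, 3570 with the minimum width, 6422.5 after joining and 3457.5 in the upper part. The share under 2 kb, 45.3%, was 48.8%, 32.3%, 40.3% and 36.7% in the same order. The correlation of neighbouring scores, 0.179, was 0.118 and 0.199 with limits of 10 and 30 kb, 0.160 with the minimum width, 0.0898 after joining and 0.218 in the upper part. The share found in both replicates, 37.5%, was 32.8% at the 10 kb limit, 46.5% with the minimum width, 44.3% in the upper part, 29.4% where 50% of the member had to be covered and 24.7% with reciprocal 50% overlap. With a replicate list in place of the combined list, the X density was 51.6 to 54.6 per Mb, the density difference 8.33 to 11.1, the covered percent 20.5 to 21.9 and the score difference 0.155 to 0.188. The median gap was then 3275 to 3724 bases, the share under 2 kb 34.4% to 37.8% and the neighbour correlation 0.149 to 0.161. The share found in a single replicate was 47.7% to 51.3%. The edge difference of 305 bases was 300 to 310. Of 69 alternative values 26 stayed within the spread or margin set for them. For the others the cause was not tested. X minus arms was taken within each replicate. No paired analysis was possible because the results come from no test, and ChIP was not set against input, for which no list was used. Depth is unknown, so its part in the unfound narrow clusters could not be examined.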
